A study of Homo sapiens with 12 samples.

Results

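The 39 HOX genes encode homeodomain transcription factors, and they were examined here for N4-acetylcytidine (ac4C) on their mRNAs. They were the protein-coding genes whose symbols are HOXA, HOXB, HOXC or HOXD followed by a number, 39 of 20056 protein-coding genes in the GRCh38.p14 gene table. The HOXA cluster on chromosome 7 held 11 of them, the HOXB cluster on chromosome 17 held 10, the HOXC cluster on chromosome 12 held 9 and the HOXD cluster on chromosome 2 held 9. A peak was given to a HOX gene when its midpoint lay in the gene span on the gene's strand.

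The peaks came from acetylated RNA immunoprecipitation sequencing (acRIP-seq), in which fragmented total RNA is pulled down with an anti-ac4C antibody and sequenced, and a stretch of RNA enriched in the pull-down is called as a peak. The cells were SW620, an established human colorectal cancer line, with 3 immunoprecipitated libraries from cells carrying a control shRNA (shControl) and 3 from cells carrying an shRNA against NAT10 (shNAT10), the acetyltransferase that makes ac4C. By the study's methods such lines were made with lentiviruses and selected with puromycin, and the labels do not say which shRNA against NAT10 these libraries carried. The labels number the replicates without saying that they were separate cultures, so p-values measure the spread between these libraries, which may be technical.

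HOX genes sit in 4 clusters that arose by duplication, and genes with the same number in different clusters are paralogues. Within a cluster the order of the genes follows the order in which they are used along the body axis, with low numbers anterior and high numbers posterior. HOX proteins bind DNA together with TALE homeodomain cofactors of the PBX and MEIS families, trithorax complexes keep the clusters active, and Polycomb complexes keep them silent. The adult intestine keeps a regional HOX pattern, and HOX genes are often expressed out of place in colorectal cancer.

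The clusters also hold microRNA genes, several of which act on HOX mRNAs. Their mature sequences are shown because they mark places inside the clusters where no peak was listed, with the seed (bases 2 to 8) in capitals, as RefSeq gives them for GRCh38.p14.
hsa-miR-196b-5p: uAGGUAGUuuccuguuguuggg
hsa-miR-196a-5p: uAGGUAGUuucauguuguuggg
hsa-miR-10a-5p: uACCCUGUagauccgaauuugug
hsa-miR-615-3p: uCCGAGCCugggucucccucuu
The first pair share the seed AGGUAGU. hsa-miR-196b-5p comes from MIR196B in the HOXA cluster (chromosome 7, 27169480 to 27169563, minus strand), and hsa-miR-196a-5p from MIR196A1 in the HOXB cluster and MIR196A2 in the HOXC cluster. MIR10A lies within the HOXB3 span and MIR615 within the HOXC4 and HOXC5 spans. None of the 8 microRNA genes matched within the clusters had a peak of any library on the same strand over its hairpin. The nearest peak to the MIR615 hairpin was 233 bases away, in knockdown replicate 1, and the nearest to MIR196B was 1028 bases away, in knockdown replicate 3. The lists are limited to mRNA peaks, so a microRNA precursor could be missing for that reason alone.

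The 6 lists held between 17877 and 28752 peaks, with the most in knockdown replicate 1. They hold no read counts and sequencing depth is unknown. Each peak had a score of 50 or more, and 7.61% to 13.7% of a library's peaks shared the value 3100. The score was used only as a percentile within its own library, the percent of that library's peaks with the same or a lower score. Of 11 intestinal epithelial marker genes, 8 had a peak in some library and EPCAM, KRT8, CDH1, VIL1 and CDX2 had one in all 6, whereas CDX1, KRT18 and KRT20 had none. Of 6 fibroblast, 5 leukocyte and 4 endothelial marker genes, 1, 2 and 2 had a peak in some library and none in all 6. Strand was unknown for 7 intestinal, 4 fibroblast, 3 leukocyte and 3 endothelial marker genes, for which peaks on either strand were counted. NAT10, the target of the shRNA, had 1, 0 and 2 peaks in control and 2, 0 and 1 in knockdown replicates, which checks no label because a peak is not an amount of mRNA. In bulk RNA, a peak missing from a list may mean less acetylation or less mRNA, and fewer cells making it and less RNA per cell cannot be told apart.

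HOX genes carried peaks in both groups, and no shift with NAT10 knockdown was detected. HOX peaks numbered 26, 30 and 27 in control and 42, 21 and 24 in knockdown replicates. The knockdown libraries held both the highest and the lowest counts, so the groups overlapped. The means were 27.7 ± 2.08 in control and 29.0 ± 11.4 in knockdown replicates (SD, n = 3 each), a difference of 1.33 peaks (two-sided exact permutation test, p = 1). With 3 against 3 libraries this two-sided test cannot give a p below 0.1. Without knockdown replicate 1, which had the most peaks of all kinds, the difference, knockdown minus control, was -5.17 (exact permutation p = 0.1, the smallest that 3 against 2 allow). As a share of all peaks of a library, the HOX peaks made up 0.143%, 0.133% and 0.135% in control and 0.146%, 0.117% and 0.126% in knockdown replicates, which also overlapped (exact permutation p = 0.5). A peak was listed in 19, 25 and 23 HOX genes in the control libraries and in 25, 17 and 20 in the knockdown libraries, with means of 22.3 ± 3.06 and 20.7 ± 4.04 (SD, n = 3; exact permutation p = 0.8). HOX peaks were by rule on the strand of their gene, and no library had a peak on the opposite strand with its midpoint in a HOX span.

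Across the 6 libraries, 28 of the 39 HOX genes (71.8%) were marked in 1 or more libraries, against 61.3% of all protein-coding genes, although the median HOX span was 3.79 kb and the median of all genes 24.1 kb. Of all genes, 4194 had no known strand and were counted on either strand, whereas each HOX gene was counted on its own strand only. A peak was listed in all 6 libraries in 14 HOX genes (35.9%, against 29.8% of all genes), and in 1 to 5 libraries in another 14. The 11 genes without a peak were HOXA2, HOXA13, HOXB1, HOXB4, HOXB5, HOXD1, HOXD3, HOXD4, HOXD10, HOXD12 and HOXD13. By paralogue group, 4 of 8 genes of groups 1 to 3, 12 of 15 of groups 4 to 8 and 12 of 16 of groups 9 to 13 had a peak in some library. In all 6 libraries these were 3, 5 and 6 genes. HOXC4 and HOXC5 reached 6 libraries only through peaks that also lie in shorter HOX spans, and with each peak given to its shortest HOX span the counts were 3, 3 and 6, or 12 genes in place of 14.

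**Figure D1:**
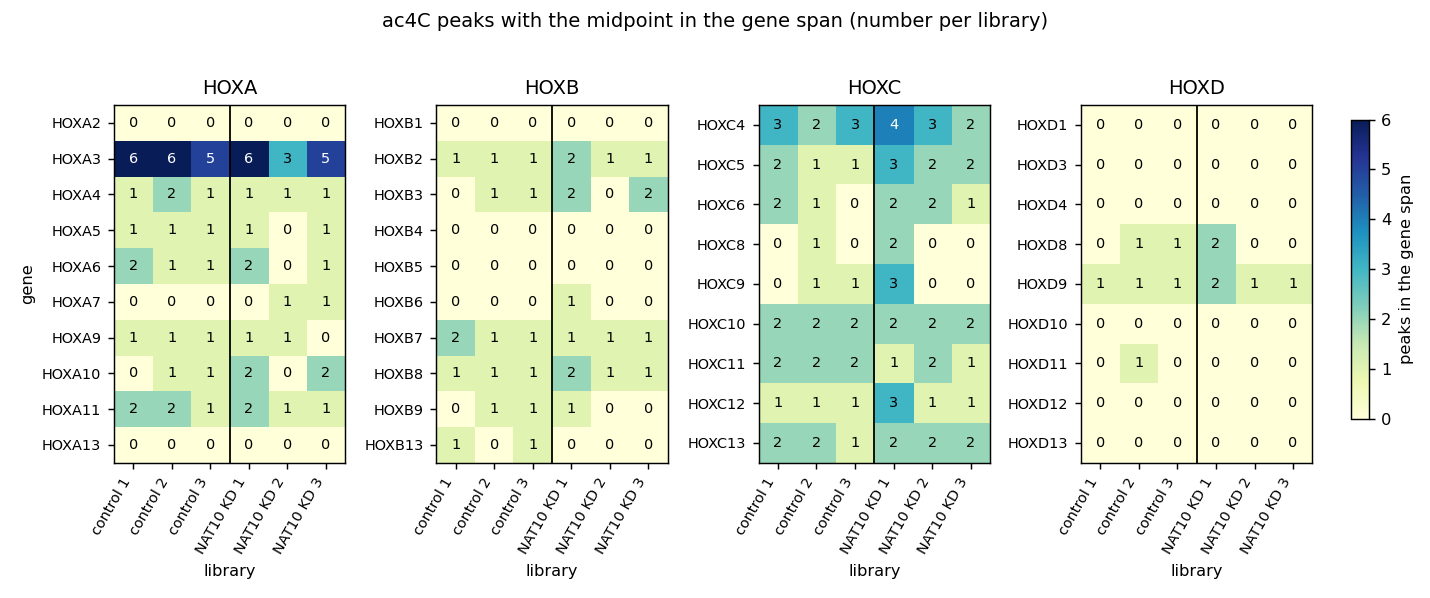
Number of ac4C peaks with the midpoint in the span of the HOX genes shown (lines of the grid) in each of the 6 libraries (columns, 3 control libraries left of the black line and 3 NAT10 knockdown (KD) libraries right of it), 1 panel per cluster. HOXC10 had 2 peaks in every library, HOXA3 had 3 to 6, and 6 of the 9 HOXD genes had none.

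The clusters differed from each other in every library or nearly so. Per library the HOXA cluster held 10, 11 and 9 peaks in control and 12, 7 and 10 in knockdown cells, and the HOXC cluster held 10, 11 and 10 and then 17, 10 and 8. The HOXB cluster held 5, 5 and 6 peaks in control and 9, 3 and 5 in knockdown cells, and the HOXD cluster held 1, 3 and 2 and then 4, 1 and 1. HOXC had the highest and HOXD the lowest mean, with values over the 6 libraries of 1.22 ± 0.344 peaks per gene in HOXC, 0.894 ± 0.157 in HOXA, 0.550 ± 0.197 in HOXB and 0.222 ± 0.141 in HOXD (SD, n = 6).

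Each pair of clusters was compared within the libraries by a two-sided exact sign-flip permutation test, with Benjamini-Hochberg adjustment over the 6 pairs. HOXC exceeded HOXD by 1.00 peaks per gene, and HOXB minus HOXC was -0.672. HOXA exceeded HOXD by 0.672 and HOXB by 0.344, and HOXB exceeded HOXD by 0.328. Each of these 5 differences had the same sign in 6 of 6 libraries (exact p = 0.03125, the smallest that 6 libraries allow, adjusted p = 0.0375). HOXC exceeded HOXA in 5 of 6 libraries, and HOXA minus HOXC averaged -0.328 ± 0.280 with a range from -0.798 to 0.0202, which did not pass (exact permutation p = 0.0625, adjusted 0.0625). Counted per 10 kb of gene span, the 4 clusters kept this order, at 1.63 in HOXC, 1.29 in HOXA, 0.743 in HOXB and 0.387 in HOXD, with the same 5 pairs past the threshold. The place of HOXA depended on the peaks counted. In lists cut to their 50% highest scores, HOXA minus HOXC was 0.0404 peaks per gene (exact adjusted p = 0.719). In another setting, peaks lying in the span of more than 1 gene were left out. This removes the peaks inside HOXA3 that also lie in HOXA4, HOXA5 or HOXA6 and those shared with the readthrough gene HOXA10-HOXA9. It also removes HOXC peaks in the nested HOXC4, HOXC5 and HOXC6 spans. HOXA then no longer exceeded HOXB (difference -0.111, exact adjusted p = 0.281), and HOXA minus HOXC was -0.579 (exact adjusted p = 0.0375). HOXB minus HOXC was then -0.469 and HOXC minus HOXD 0.796 (exact adjusted p = 0.0375 each).

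No cluster shifted detectably with the knockdown. The differences, knockdown minus control, were -0.333 peaks in HOXA, 0.333 in HOXB, 1.33 in HOXC and 0 in HOXD, each with an adjusted p of 1 (exact permutation test, 3 against 3). The count of 17 in HOXC came from knockdown replicate 1, and that library had the highest count in every cluster. Without it the differences were -1.50 in HOXA, -1.33 in HOXB, -1.33 in HOXC and -1 in HOXD, so all 4 were lower in knockdown, each with an adjusted p of 0.5 (exact permutation test, 3 against 2).

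In the HOXA cluster, recurrent peaks were found in anterior, middle and posterior genes. HOXA3, a gene of the pharyngeal arches whose annotated span also covers HOXA4, HOXA5 and HOXA6, listed 6, 6 and 5 peaks in control and 6, 3 and 5 in knockdown replicates. When each peak was given to the shortest span that held it, HOXA3 had 2 peaks in every library. One was at chromosome 7, 27110115 to 27110760, with the same edges in all 6 libraries, and the other within 27106184 to 27108720, where the upstream edge was shared and the downstream edge varied.

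HOXA4 listed 1, 2 and 1 peaks in control and 1 in each knockdown library, with a region near the 3′ end in all 6 (27128507 to 27129571). HOXA5, a regulator of lung and gut development, had 1 peak in every library except knockdown replicate 2. It lay at the 5′ end in control replicate 1 and knockdown replicate 1 and at the 3′ end in control replicates 2 and 3 and knockdown replicate 3. HOXA6 listed 2, 1 and 1 peaks and then 2, 0 and 1, with a 5′ region in 5 libraries (27147308 to 27147774). HOXA7 had no peak in control libraries or knockdown replicate 1 and 1 in each of knockdown replicates 2 and 3 (27156167 to 27156677).

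Among the posterior HOXA genes, HOXA9, known as a leukaemia oncogene, had 1 peak in every library except knockdown replicate 3. It lay toward the 3′ end in control replicates 1 and 3 and knockdown replicate 2 and at the 5′ end in control replicate 2 and knockdown replicate 1. No library listed both. HOXA10, required in the uterus, listed 0, 1 and 1 peaks in control and 2, 0 and 2 in knockdown replicates. HOXA11, which patterns the forearm and uterus, listed 2, 2 and 1 and then 2, 1 and 1, with a region in all 6 libraries at 27181670 to 27183028. The spans of HOXA9 and HOXA10 also lie in the readthrough gene HOXA10-HOXA9, so their peaks cannot be told apart from peaks of that transcript.

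In the HOXB cluster, the recurrent peaks lay near the 3′ ends. HOXB2, a hindbrain gene, listed 1 peak in each control library and 2, 1 and 1 in knockdown libraries, with a region in all 6 at chromosome 17, 48542809 to 48543747. HOXB7 listed 2, 1 and 1 peaks and then 1, 1 and 1, with the same 869 bases in all 6 libraries (48607227 to 48608095). HOXB8 listed 1 in each control library and 2, 1 and 1 in knockdown libraries, with the same 1164 bases in all 6 (48612346 to 48613509). These 2 neighbouring middle genes held the highest-scored HOX peaks of the cluster.

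The other HOXB genes were marked in some libraries only. HOXB3 listed 0, 1 and 1 peaks in control and 2, 0 and 2 in knockdown replicates, and the region at 48552027 to 48553411 was seen in knockdown replicates 1 and 3 alone. HOXB6 had a single peak, in knockdown replicate 1. HOXB9 listed 0, 1 and 1 and then 1, 0 and 0, with a 3′ region in control replicates 2 and 3 (48621159 to 48623135) and a 5′ region in knockdown replicate 1. HOXB13, the most posterior gene of the cluster and active in the hindgut and prostate, had 1 peak in control replicates 1 and 3 and none elsewhere, and those 2 peaks did not overlap each other.

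All 9 HOXC genes had a peak in some library, and 6 of them in every library, or 4 with each peak given to its shortest HOX span. HOXC10, a posterior limb and trunk gene, listed 2 peaks in each of the 6 libraries, one at the 5′ end (chromosome 12, 53985186 to 53986010) and one at the 3′ end (53989169 to 53990279). HOXC11 listed 2 in each control library and 1, 2 and 1 in knockdown libraries. Its 5′ region (53973126 to 53973927) was in all 6, and its second region (53975181 to 53976425) was in 3 control libraries and in knockdown replicate 2. HOXC12 listed 1 in each control library and 3, 1 and 1 in knockdown libraries, with a region in all 6 at 53956328 to 53958813. HOXC13, a regulator of hair and nail keratins, listed 2, 2 and 1 and then 2, 2 and 2. Its 5′ region (53938765 to 53939642) had the same edges in all 6 libraries, and its 3′ region (53945000 to 53946544) was missing from control replicate 3.

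The anterior and middle HOXC genes have nested spans. HOXC4 listed 3, 2 and 3 peaks in control and 4, 3 and 2 in knockdown replicates, of which 1, 1 and 2 and then 1, 1 and 0 lay in no shorter HOX span. Its own region was in 5 libraries (54053877 to 54054361) and not in knockdown replicate 3. HOXC5 listed 2, 1 and 1 and then 3, 2 and 2, of which 0, 0 and 1 and then 1, 0 and 1 were its own. HOXC6 listed 2, 1 and 0 and then 2, 2 and 1, with a 5′ region in 5 libraries (54016729 to 54017414). HOXC8 listed 0, 1 and 0 and then 2, 0 and 0, and HOXC9 listed 0, 1 and 1 and then 3, 0 and 0, so both had most of their peaks in knockdown replicate 1.

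In the HOXD cluster, 3 of 9 genes had a peak. HOXD9, a limb and trunk gene, listed 1 in each control library and 2, 1 and 1 in knockdown libraries. Its 3′ region (chromosome 2, 176123934 to 176124937) was in control replicate 3 and in all 3 knockdown libraries, and its 5′ region was in control replicates 1 and 2 and knockdown replicate 1. HOXD8 listed 0, 1 and 1 and then 2, 0 and 0, and HOXD11 had a single peak, in control replicate 2.

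Along the gene, with all HOX genes counted, HOX peaks favoured the 3′ side more than peaks in other genes did. Each peak was placed upstream or downstream of the midpoint of the shortest gene span that held it. The share upstream was 38.5%, 46.7% and 22.2% of HOX peaks in control and 45.2%, 23.8% and 29.2% in knockdown replicates. For peaks in other genes of known strand it was 56.3%, 54.2% and 53.4% in control and 50.6%, 55.7% and 54.8% in knockdown replicates. HOX minus other peaks was below 0 in 6 of 6 libraries, with a mean of -19.9 ± 11.6 percentage points (SD, n = 6; p = 0.03125 by the exact sign-flip permutation test, two-sided). HOXA3, HOXB3, HOXC4 and HOXC5 have long spans of 45.6, 41.4, 39.1 and 18.5 kb. Their own regions all lay far downstream, at 88.5% to 97.9% of the span. In knockdown replicate 1, 19 HOX peaks lay upstream and 23 downstream. The downstream ones included 2, 2, 1 and 1 peaks of these genes in that order, each peak given to its shortest span. Without those, the upstream share there would exceed the 50.6% of other genes, so the sign in every library depends on these long spans. The test was not repeated without them. Between the groups the HOX share did not differ beyond its spread, at 35.8% ± 12.4 and 32.7% ± 11.2 (SD, n = 3; exact permutation p = 0.9). No exon annotation was used here, so a side of the midpoint is not a statement about coding sequence or untranslated region.

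In 18 HOX genes the libraries together listed a peak on both sides of the midpoint, and single libraries often listed only one of them. An upstream peak was listed in 10, 12 and 5 of these 18 genes in control libraries and in 16, 4 and 6 in knockdown libraries. A downstream peak was listed in 12, 11 and 13 and then 13, 13 and 10, which varied less. The upstream counts were therefore highest in control replicates 1 and 2 and knockdown replicate 1, a division that does not follow the groups. HOXA11 and HOXD9 show it plainly, since both listed their 5′ peak in exactly those 3 libraries. In HOXA5, HOXA9 and HOXB9 no library listed both sides, whereas HOXC10 listed both in all 6.

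**Figure D2:**
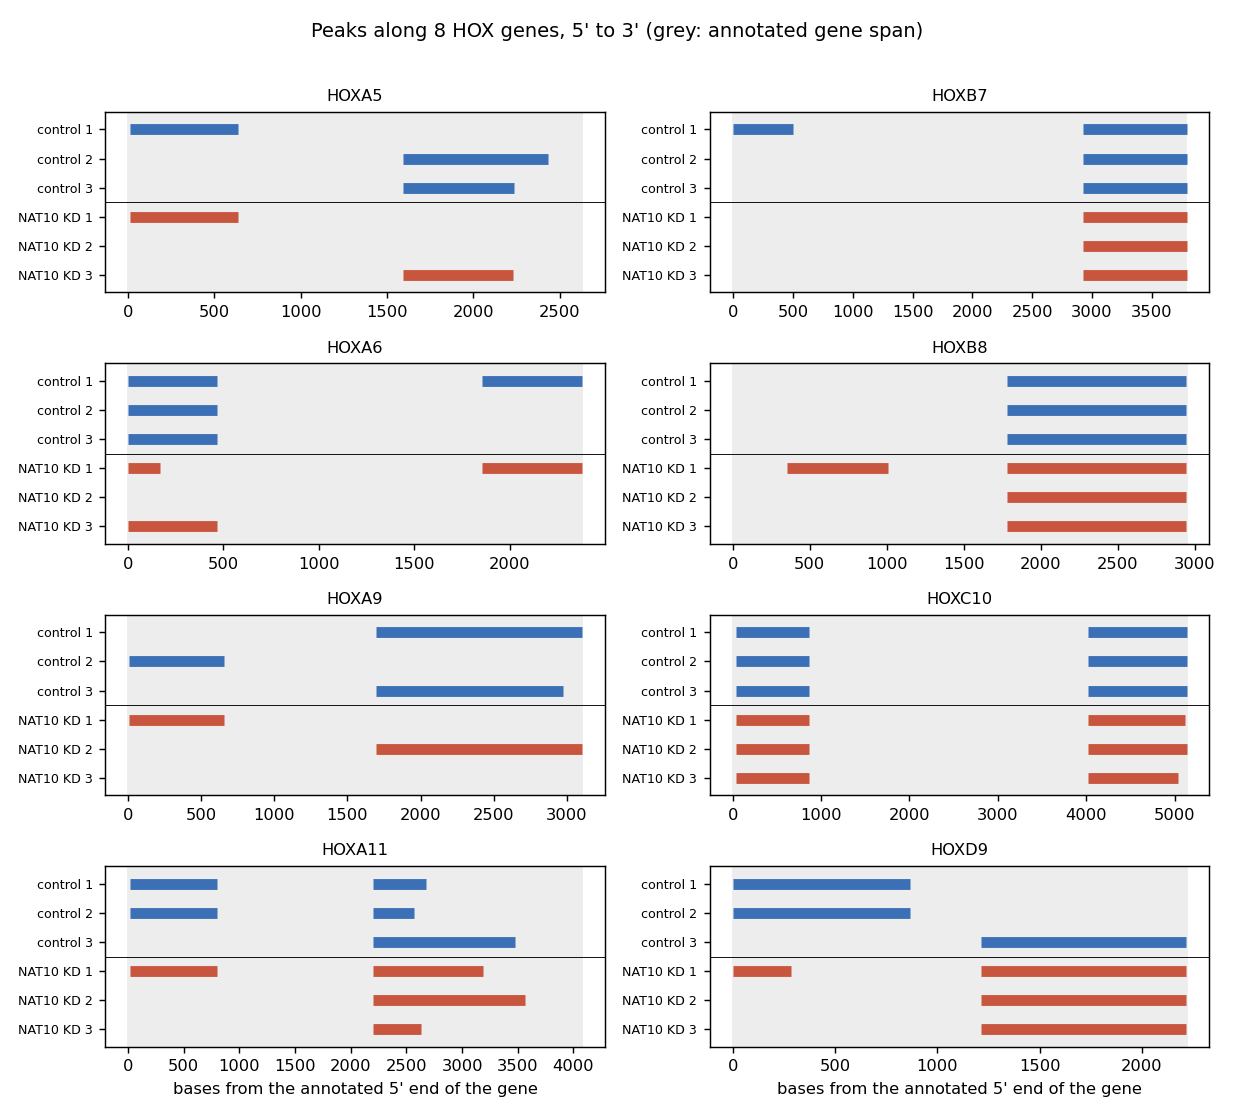
Peaks of each library (thick bars, control in blue, NAT10 knockdown (KD) in red) along 8 HOX genes, in bases from the annotated 5′ end, with the gene span in grey. HOXC10 shows a 5′ and a 3′ peak in all 6 libraries, HOXB7 and HOXB8 share a 3′ peak in all 6, and in HOXA5, HOXA9 and HOXD9 the side that is marked changes between libraries of the same group.

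HOX peaks were also wider than other peaks. Their median width was 812.5, 707 and 932 bases in control and 673.5, 1004 and 908.5 bases in knockdown replicates, whereas all other peaks had medians of 222, 200 and 223 and of 189, 227 and 221 bases. The lowest HOX median was well above the highest median of the others. The difference averaged 626 ± 117 bases and had the same sign in 6 of 6 libraries (SD, n = 6; two-sided exact sign-flip permutation test, p = 0.03125). This and the comparison of sides were both chosen after the data were seen, and adjusted over the pair each p stayed at 0.03125. HOX width did not differ beyond its spread between the groups, at 817 ± 113 and 862 ± 170 bases (SD, n = 3; exact permutation p = 0.8).

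**Figure D3:**
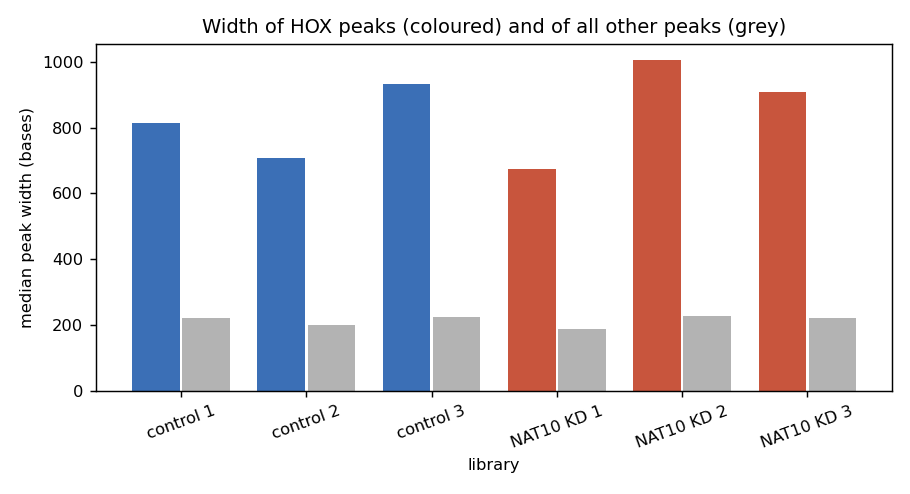
Median width in bases of the HOX peaks (coloured bars, control in blue and NAT10 knockdown (KD) in red) and of all other peaks (grey bars) of each library. The HOX medians run from 673.5 to 1004 bases and the others from 189 to 227.

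Peaks from any of the 6 lists that shared 1 or more bases on a strand were merged, which gave 52 HOX regions among 41755 in all. A peak was present in all 6 libraries in 12 of them (23.1%, against 22.0% of all regions) and in 1 library in 14 (26.9%, against 38.7%). Of the latter, 7 came from knockdown replicate 1. Of the 12 recurrent regions, 10 had 1 peak per library, and in 9 of these 10 the upstream edge was at the same base in all 6 libraries. That share, 90%, was close to the 85.1% of all such regions. The downstream edge was the same in 5 of 10 (50%, against 84.5%), and 4 of the 5 regions whose edges varied did so at the downstream edge alone. In HOXA11, for example, all 6 peaks began at base 27183028 and ended at 6 different bases. The median width was 831 bases over the 52 HOX regions and 180 over all regions, and edges were not compared among regions of like width.

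No HOX gene met the stricter rule for a change with knockdown, a peak in every library of one group and in no library of the other, which 0.429% of all protein-coding genes met. No HOX region met it either, against 1.16% of all regions. Under a looser rule, a difference of at least 2 libraries, 2 HOX genes were called (5.13%), against 4.72% of all genes. They were HOXA7, with more knockdown libraries (2.15% of all genes in that direction), and HOXB13, with more control libraries (2.57%). At the level of regions the looser rule called 5 of 52 (9.62%), against 9.99% of all. HOXB9 and HOXC11 each had a region with more control libraries (4.07% of all regions), and HOXA7, HOXB3 and HOXD9 each had one with more knockdown libraries (5.92%). The HOX shares were close to the shares over all genes and regions.

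Scores were compared at the 12 regions present in all 6 libraries, with the highest peak taken where a library had more than 1. HOXB8 stood at percentiles of 58.8, 86.8 and 82.2 in control and 99.6, 99.5 and 99.5 in knockdown replicates, the last 3 all at the score of 3100. It was the only one of the 12 whose groups did not overlap, and all 3 knockdown values were higher. Non-overlap in that direction was seen in 8.73% of the 9195 regions present in all libraries, in the opposite direction in 3.27%, and in either in 12%, so 1 in 12 (8.33%) was close to the background. The count depended on the libraries used. With knockdown higher, it was 4 of 12 HOX regions without control replicate 2 (17.6% of all regions) and 4 of 14 without control replicate 3 (16.4%). It was 3 of 14 without knockdown replicate 2 (14.2%) and 2 of 12 without knockdown replicate 1 (11.2%). In these settings the HOX share was above that of all regions. It was below without control replicate 1, at 1 of 12 (8.33%, against 12.15% of all regions). The same held without knockdown replicate 3, at 1 of 13 (7.69%, against 13.04%). HOXB7 stood at 91.3, 88.4 and 99.4 in control and 99.6, 88.0 and 99.5 in knockdown replicates, high in both. The 5′ peak of HOXC10 stood at 71.4, 85.1 and 78.1 and then 84.0, 85.6 and 99.5, and that of HOXC13 at 65.0, 65.7 and 61.3 and then 71.8, 63.3 and 58.4, so both overlapped. HOXA11 spread widely within control libraries, at 33.8, 75.6 and 6.8, against 36.4, 54.1 and 56.7 in knockdown libraries.

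The 3′ region of HOXC13 stood apart among regions missing from some library. It was at percentiles of 10.8 and 17.4 in control replicates 1 and 2, absent in control replicate 3, and at 50.1, 62.7 and 67.5 in knockdown libraries. When each list was cut to its 50% highest scores, it was the only HOX region with a peak in all 3 knockdown libraries and no control library. Of all regions in those shortened lists, 0.912% were so in that direction and 1.35% in either. At 50.1 in knockdown replicate 1, the HOXC13 region was only just above that cut. It was singled out after its values were seen, and the two-sided exact permutation test over 3 against 3 libraries cannot give a p below 0.1.

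The cofactors and chromatin regulators of the HOX genes were marked in both groups. Of 9 TALE cofactors, 8 had a peak in some library and 4 in all 6, led by MEIS3 with 2, 4 and 4 peaks in control and 3, 5 and 3 in knockdown replicates. Of 11 trithorax group members and activators, 11 had a peak and 9 in all 6 libraries. DOT1L, the histone methyltransferase of active genes, listed 9, 10 and 9 and then 17, 12 and 10, with the highest count in the library that had the most peaks. Its strand was not known, so peaks on either strand were counted for it. Of 23 Polycomb genes, 22 had a peak and 16 in all 6, led by PHC2 with 7, 12 and 11 and then 9, 7 and 9. Of 34 other homeobox genes of the same class, 19 had a peak and 11 in all 6, among them CDX2, the intestinal master regulator, with 2, 2 and 3 and then 4, 3 and 3. TLX1, a developmental homeobox gene, was the single gene of the 4 lists to meet the stricter rule (1 of 77, 1.30%, against 0.429% of all genes), with no peak in control and 2, 1 and 1 in knockdown replicates.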

How the data were processed

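acRIP-seq peak lists of 6 immunoprecipitated SW620 libraries, 3 per group by their labels, were used. The 6 input libraries were not analysed here. The authors called peaks in each library without pooling and deposited lists limited to mRNA, with positions, a strand and a score per peak. The build, GRCh38, is from the submitters' processing notes, and the aligner, caller version and settings are not given in the sources used here. What the deposited score measures is not stated, and its pile-up at 3100 hides order among the highest peaks.

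Peak midpoints were placed in gene spans of the RefSeq GRCh38.p14 table. That table has no strand, so strand came from the RefSeq promoter table for 15843 genes. Of the HOX genes 20 had a strand there, the other 19 were given that of their cluster, and other genes without one were counted on either strand. Peaks in several HOX spans counted once per cluster and once per gene.

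Groups were compared by two-sided exact permutation tests over 6 libraries, and clusters by exact sign-flip tests within libraries, with Benjamini-Hochberg adjustment. HOX genes are named with their peaks in every library, except that one result is not reported here. Coordinates are given for regions in at least 5 libraries or differing by at least 2 libraries between groups, and related genes are those called or, at most 4 per list, with the most peaks. The members and lists were chosen with earlier results of these data known, and peak width, side of the midpoint and score percentiles after the data were seen. Alternatives were the 50% highest scores, equal list lengths, any overlap, either strand, spans of 1 gene only, peaks per 10 kb, at least 50% of a region covered, a looser call, a replicate block and each library left out. The code was tested on simulated lists. Python 3.11.15, numpy 2.4.6, pandas 2.3.3 and matplotlib 3.10.9 were used.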

Additional observations from a re-analysis of the deposited data

How the results depend on the processing

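In lists cut to the 50% highest scores, the difference, knockdown minus control, became 2.33 HOX genes (exact permutation p = 0.6) and 0.0125 percentage points of all peaks (p = 0.5), the cluster differences became 1.00 peaks in HOXA, -0.333 in HOXB and 0.333 in HOXD, HOXA minus HOXC became 0.0404 peaks per gene (exact adjusted p = 0.719), 1 HOX region was called, and 6 regions were in every library. With 17877 peaks in each list, the difference was -1.67 HOX peaks (exact permutation p = 0.7), -0.333 in HOXB, 0 in HOXC and -0.667 in HOXD. With spans of 1 gene only, it was 0.333 in HOXA, HOXA minus HOXB was -0.111 (exact adjusted p = 0.281) and HOXA minus HOXC was -0.579 (exact adjusted p = 0.0375). A difference of at least 2 libraries called 2 HOX genes and 5 regions. The cause of these changes was not tested. Any overlap, either strand and peaks per 10 kb changed no direction or call, and covering at least 50% of a region changed no call.

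Leaving out each library in turn, the difference ranged from -5.17 to 5.33 HOX peaks, -3.83 to 0.167 HOX genes, -0.0148 to -0.000541 percentage points of all peaks and -9.83 to 2.40 points upstream of the midpoint. By cluster it ranged from -1.50 to 1.00 in HOXA, -1.33 to 1.67 in HOXB, -1.33 to 3.17 in HOXC and -1 to 0.5 in HOXD. The pairs ranged from 0.313 to 0.375 for HOXA minus HOXB, -0.398 to -0.234 for HOXA minus HOXC, 0.646 to 0.701 for HOXA minus HOXD, -0.729 to -0.609 for HOXB minus HOXC, 0.302 to 0.360 for HOXB minus HOXD and 0.911 to 1.04 for HOXC minus HOXD. The width difference ranged from 595.7 to 654.2 bases and the side difference from -22.8 to -17.5 points. With 5 libraries the smallest exact p is 0.0625, so none of these could pass. Calls ranged from 0 to 1 HOX genes (HOXB13 without control replicate 2 and HOXA7 without knockdown replicate 1) and from 0 to 2 regions (HOXB9 without control replicate 1, HOXD9 without control replicate 3, HOXA7 without knockdown replicate 1, and HOXC11 and HOXB3 without knockdown replicate 2). With 2 libraries left in a group the stricter rule is easier to meet. No share over all genes or regions is given for these settings, so the calls are not read as a result about HOX genes. Regions in every library ranged from 12 to 14, with non-overlapping percentiles higher in knockdown at 1 to 4 and in control at 0 to 1.

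When replicate numbers were used as a block, the difference was 1.33 HOX peaks (exact sign-flip p = 1, smallest possible 0.25), -1.67 HOX genes (p = 0.75) and -0.00673 percentage points (p = 0.5). Same-numbered control and knockdown libraries correlated at 0.0295, 0.00234 and 0.0318 over regions, and differently numbered ones at -0.0335 to 0.0117. These low values do not mean that the lists disagreed, since 9195 of the 41755 regions had a peak in all 6 libraries. The labels do not say that equal numbers mark a pair, and the block changed no call. The unknown depth limits every count.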

Other observations

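A few peaks lay within the limits of a cluster without a midpoint in a HOX gene on its strand. In the HOXA cluster a region at chromosome 7, 27179646 to 27180261, on the strand of the cluster and within the readthrough gene HOXA10-HOXA9, had a peak in control replicates 1 and 3 and knockdown replicates 1 and 3. Beside HOXB13, on the strand opposite to the HOXB genes, PRAC2 had a region at chromosome 17, 48723168 to 48723313, with a peak in control replicate 3, and another at 48724328 to 48724758 with a peak in control replicate 2 and knockdown replicates 1 and 3. PRAC2 is known as a gene of the prostate, rectum and distal colon.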
